A study of Homo sapiens with 6 samples.

Results

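The genes described here are the enzymes of cholesterol synthesis, the proteins that take up, move and store cholesterol, and the regulators of the SREBP and LXR systems. They were taken as 30 named genes whose symbol matches a row of the deposited count table, which holds 28317 genes. All 30 were found, and all 30 passed the filter on low counts, with between 172 and 16470 counts in a library. They fall into 18 synthesis steps and 12 genes of uptake, storage and control. RNA was sequenced from A549 cells, a human line established from a lung adenocarcinoma. In the UXS1 KO group the cells had been transduced with a lentiviral CRISPR vector, lentiCRISPR v2, carrying a single guide against UXS1, the enzyme that turns UDP-glucuronic acid into UDP-xylose. The CTRL group carried the same vector with a non-targeting guide. Both groups went through 5 days of puromycin selection, were collected on day 7 after infection and grew in DMEM with 10% fetal bovine serum, which itself supplies lipoproteins. Each group has 3 libraries, given as biological triplicates. Whether they go back to separate infections, pools or clones is not stated, so p-values cover the spread between these libraries, which may be technical.

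Cells make cholesterol from acetyl-CoA through mevalonate, farnesyl diphosphate and squalene, and a series of sterol steps then turns lanosterol into cholesterol. The transcription factors SREBP1 and SREBP2 are made as membrane proteins of the endoplasmic reticulum. When sterols are scarce their escort SCAP carries them to the Golgi, where proteases release the active part. When sterols are plentiful, INSIG proteins hold SCAP back. The nuclear receptors LXR alpha (NR1H3) and LXR beta (NR1H2) are activated by oxysterols and turn on genes of cholesterol export.

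Library totals ran from 21121489 to 22160405 counts, and levels are given as CPM, counts scaled to library size, unless TPM is named. The targeted gene was lower in every UXS1 KO library: UXS1 had 34.9, 34.6 and 34.2 CPM in UXS1 KO libraries, against 61.2, 65.1 and 65.4 CPM in CTRL libraries. These groups did not overlap (log2 fold change -0.89, SE 0.0475, edgeR adjusted p = 2.2e-14), and the mean in UXS1 KO was 54.1% of that in CTRL. An exact two-sided permutation test on CPM gave p = 0.1, and 3 libraries against 3 cannot give less. The epithelial markers KRT8 and KRT18 were high, at 7637 CPM in UXS1 KO and 7440 CPM in CTRL for KRT8 and 3948 CPM in UXS1 KO and 3950 CPM in CTRL for KRT18. Other epithelial markers were higher in UXS1 KO, with CDH1 at 94.1 CPM in UXS1 KO and 51.7 CPM in CTRL, KRT19 at 195 CPM in UXS1 KO and 133 CPM in CTRL and EPCAM at 6.68 CPM in UXS1 KO and 4.20 CPM in CTRL. The alveolar type 2 markers SFTPC, SFTPB, SFTPA2 and NKX2-1 were near 0, none above 0.138 CPM in either group's mean, while ABCA3 stood at 125 CPM in UXS1 KO and 104 CPM in CTRL. Of the defining markers of other cell types, CD3E, COL1A2 and APOA2 had no count in any library.

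Small shifts in both directions were found in cholesterol synthesis, while 6 of 7 regulators rose. By edgeR's quasi-likelihood test with Benjamini-Hochberg adjustment over 15757 genes (adjusted p under 0.05), 13 of the 30 genes were higher in UXS1 KO and 5 were lower. Over all genes tested, 24.5% were called higher and 23.7% lower, 48.2% in all. Where the mean reached 5 CPM, as in all 30, 26.2% of genes were called higher and 30% lower, 56.2% in all. Among the 18 synthesis genes 5 rose and 4 fell, shares of 27.8% and 22.2%. Both are near the shares over all genes tested, and the share lower is below the 30% where the mean reached 5 CPM. Among the 12 genes of uptake, storage and control 8 rose and 1 fell, shares of 66.7% and 8.3%. The median log2 fold change (UXS1 KO over CTRL) was 0.02 for the synthesis genes and 0.15 for the others, against -0.00301 for all genes tested. Without the sign, the median was 0.143 for the synthesis genes and 0.153 for the others. It was larger over all genes tested, at 0.193, and 0.160 where the mean reached 5 CPM. No gene of the 30 was as much as 2-fold apart, and 16 of the 18 called genes differed by under 1.5-fold. The exceptions were NR1H3 and TM7SF2. Of the called genes, 17 had CPM values that did not overlap between groups, and over all 30 it was 20. The same was true of 54.5% of all genes tested and of 61.6% of those whose mean reached 5 CPM.

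**Figure D1:**
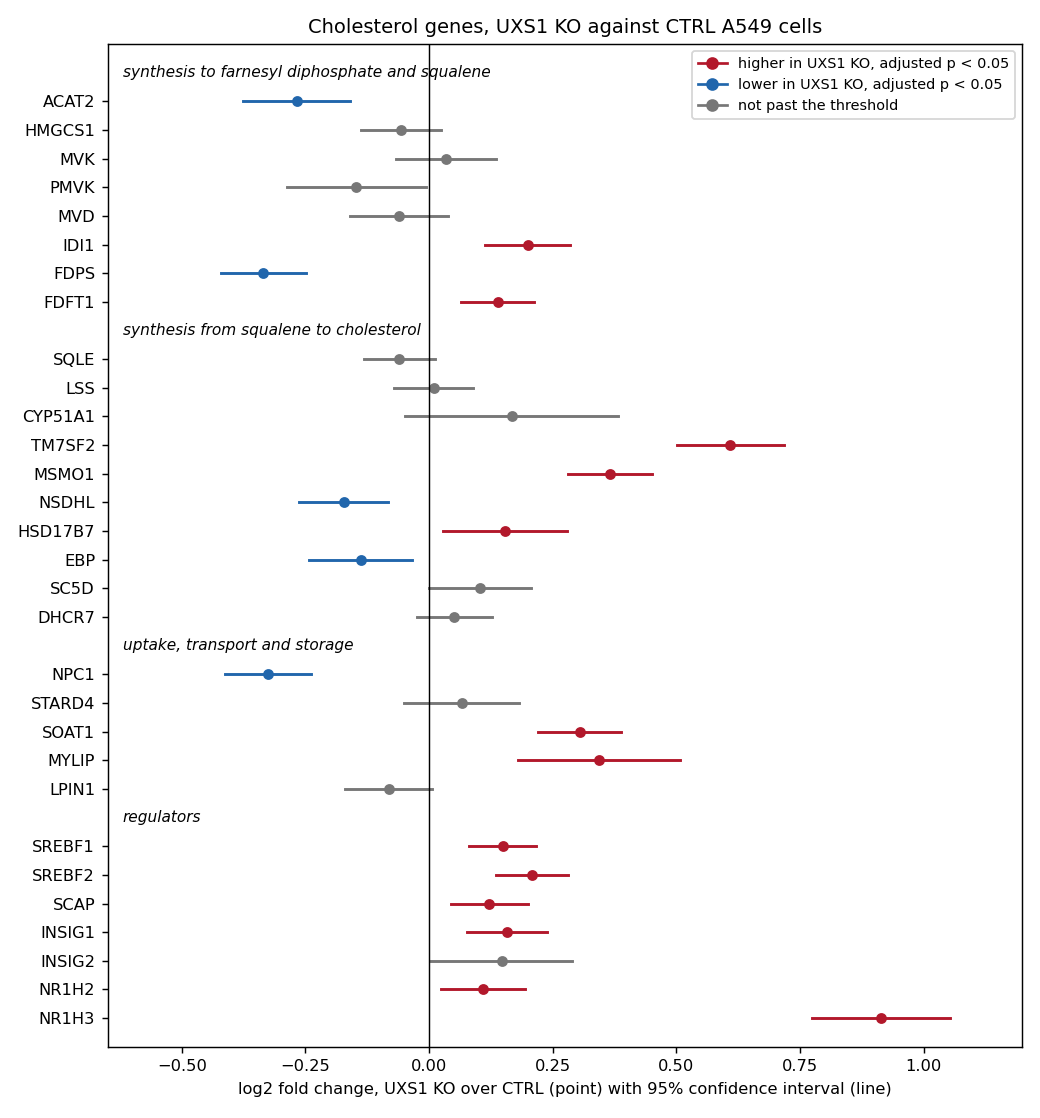
Log2 fold change (UXS1 KO over CTRL, x axis) of each of the 30 genes with its 95% confidence interval, in pathway order from top to bottom; red and blue points passed the adjusted p threshold of 0.05. NR1H3 (0.91) and TM7SF2 (0.61) lie farthest to the right, and FDPS (-0.34) and NPC1 (-0.33) farthest to the left.

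The early stretch of the route, up to squalene, showed 2 rises and 2 falls among 8 genes. Each is a share of 25%, near the 24.5% higher and 23.7% lower over all genes tested. Among genes whose mean reached 5 CPM, the shares were 26.2% higher and 30% lower. FDPS, which makes farnesyl diphosphate, the branch point to sterols and to protein prenylation, was the member that fell most. It had 74.3, 75.5 and 74.5 CPM in UXS1 KO libraries, against 91.3, 99.2 and 92.7 CPM in CTRL libraries, so every UXS1 KO library lay below every CTRL library (log2 fold change -0.34, SE 0.0418, edgeR adjusted p = 2.0e-07). Of its exonic length 18.6% is shared with a gene on the opposite strand. ACAT2, the cytosolic thiolase that makes acetoacetyl-CoA at the head of the route, had 33.8, 34.7 and 36.2 CPM in UXS1 KO libraries, against 40.1, 43.9 and 42.1 CPM in CTRL libraries. It was also lower without overlap (log2 fold change -0.27, SE 0.0524, edgeR adjusted p = 1.3e-04). Of its exonic length 52.3% is shared with genes on the opposite strand, among them TCP1, which had a log2 fold change of -0.38, and whether the counting used strand is not stated, so the value of ACAT2 is uncertain.

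The step just before FDPS went the other way. IDI1, the isopentenyl diphosphate isomerase, had 127, 124 and 134 CPM in UXS1 KO libraries, against 108, 110 and 118 CPM in CTRL libraries (log2 fold change 0.20, SE 0.0418, edgeR adjusted p = 2.9e-04). FDFT1, squalene synthase, which draws on the product of FDPS, had 254, 260 and 264 CPM in UXS1 KO libraries, against 230, 233 and 244 CPM in CTRL libraries (log2 fold change 0.14, SE 0.0361, edgeR adjusted p = 0.0024). Both rises were small and the groups did not overlap in either gene. IDI1 shares 14.8% of its exonic length with IDI2-AS1 on the opposite strand.

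The other 4 genes of this stretch did not pass the test. HMGCS1, which makes HMG-CoA and is a classic SREBP2 target, had 106, 107 and 102 CPM in UXS1 KO libraries, against 111, 106 and 110 CPM in CTRL libraries, and its groups overlapped (log2 fold change -0.06, SE 0.0390, edgeR adjusted p = 0.24). The 95% confidence interval of its fold was 0.909 to 1.02, and 15% of its exonic length is shared with a gene on the opposite strand. The mevalonate kinase MVK stood at a log2 fold change of 0.03, the phosphomevalonate kinase PMVK at -0.15 and the decarboxylase MVD at -0.06, with adjusted p of 0.60, 0.078 and 0.31 by edgeR. PMVK was called lower without CTRL replicate 3 (edgeR adjusted p = 0.0123), the library with the lowest CTRL value.

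After squalene, 3 of 10 genes rose and 2 fell, and the rises were those of TM7SF2, MSMO1 and HSD17B7. These shares, 30% and 20%, were near the 24.5% higher and 23.7% lower over all genes tested. Where the mean reached 5 CPM, 26.2% of genes were higher and 30% lower. TM7SF2, one of the enzymes that reduce the C14 double bond of the sterol ring, had 46.4, 43.1 and 47.5 CPM in UXS1 KO libraries, against 29.5, 30.1 and 30.3 CPM in CTRL libraries. All 3 UXS1 KO values lay far above CTRL, which is a 1.53-fold difference, with a 95% confidence interval of 1.42 to 1.64 (log2 fold change 0.61, SE 0.0527, edgeR adjusted p = 2.8e-10). MSMO1, the C4 methyl oxidase, had 112, 109 and 115 CPM in UXS1 KO libraries, against 84, 85.7 and 91.4 CPM in CTRL libraries. This was a 1.29-fold difference, with a 95% confidence interval of 1.21 to 1.37 (log2 fold change 0.37, SE 0.0415, edgeR adjusted p = 4.3e-08), without overlap.

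NSDHL, the dehydrogenase that works with MSMO1 in removing the C4 methyl groups, moved the other way. It had 53.6, 54.2 and 54.8 CPM in UXS1 KO libraries, against 59.4, 62.5 and 61.4 CPM in CTRL libraries, a small fall without overlap (log2 fold change -0.17, SE 0.0436, edgeR adjusted p = 0.0018). EBP, the sterol isomerase, had 41.2, 39.4 and 41.2 CPM in UXS1 KO libraries, against 43.2, 47.3 and 43.5 CPM in CTRL libraries (log2 fold change -0.14, SE 0.0508, edgeR adjusted p = 0.027). Its call was lost without UXS1 KO replicate 2 (adjusted p = 0.124), without CTRL replicate 2 (adjusted p = 0.162) and with DESeq2 (adjusted p = 0.0776).

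HSD17B7, the ketoreductase of the same demethylation complex, had 23.9, 23.2 and 22.8 CPM in UXS1 KO libraries, against 20.6, 21 and 21.2 CPM in CTRL libraries (log2 fold change 0.15, SE 0.0609, edgeR adjusted p = 0.04). The groups did not overlap, but the call was lost without any single library, with edgeR adjusted p between 0.0551 and 0.130, and with DESeq2 (adjusted p = 0.136). Its transcribed pseudogene HSD17B7P2 drew 174 counts in all and was not called (log2 fold change 0.26, edgeR adjusted p = 0.37).

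SQLE, the squalene epoxidase and a rate-limiting step of the sterol stretch, had 186, 190 and 192 CPM in UXS1 KO libraries, against 198, 195 and 199 CPM in CTRL libraries. The values lay close together and the test was not passed (log2 fold change -0.06, SE 0.0352, edgeR adjusted p = 0.17), although every UXS1 KO value lay below every CTRL value. LSS, the lanosterol synthase, had the smallest difference of the 30 genes, a log2 fold change of 0.01 (edgeR adjusted p = 0.86). DHCR7, a late reductase of the route and the most abundant synthesis transcript per length, had 292, 290 and 303 CPM in UXS1 KO libraries, against 273, 287 and 295 CPM in CTRL libraries, with overlapping groups (log2 fold change 0.05, SE 0.0368, edgeR adjusted p = 0.27).

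SC5D, the C5 desaturase, stood at a log2 fold change of 0.10 (edgeR adjusted p = 0.091). CYP51A1, the C14 demethylase upstream of TM7SF2, had 10.8, 8.20 and 8.45 CPM in UXS1 KO libraries, against 8.19, 7.91 and 8.29 CPM in CTRL libraries. UXS1 KO replicate 1 alone was high, the groups overlapped, and the test was not passed (log2 fold change 0.17, SE 0.104, edgeR adjusted p = 0.2). Of its exonic length 79.4% is shared with other annotated transcripts on the same strand, so its level is uncertain.

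Adding the steps up, the 18 synthesis genes came to 1405 to 1493 TPM (a relative level corrected for gene length) in UXS1 KO libraries and 1420 to 1440 TPM in CTRL libraries. The TPM ranges overlapped. For the 8 early genes the sums were 580 to 612 TPM in UXS1 KO and 603 to 609 TPM in CTRL. For the 10 later genes they were 825 to 881 TPM in UXS1 KO and 811 to 834 TPM in CTRL. The TPM sums of both stretches also overlapped between the groups. Summed as CPM, which gives long transcripts more weight, every UXS1 KO library lay above every CTRL library, at 1617 to 1660.5 CPM in UXS1 KO and 1558 to 1613 CPM in CTRL. The same held for the later genes, at 902 to 933 CPM in UXS1 KO and 862 to 891 CPM in CTRL. The CPM sums of the early genes overlapped, at 707 to 727 CPM in UXS1 KO and 696 to 722 CPM in CTRL. Whether the groups' sums overlap thus depends on the unit, and the sums were not tested.

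The promoters of 4 called genes that hold a motif searched for below are shown. They set genes that moved in different directions beside the SREBP2 gene itself. A motif in these windows was a condition of the choice. RefSeq promoter windows of 300 bases (250 before to 50 after a gene's start, GRCh38.p14) matched 27 of the 30 genes, all but ACAT2, FDFT1 and SQLE. Both strands were searched for TCACCCCAC, the core of the sterol regulatory element bound by SREBPs, for TCACNCCAC, which includes it, for CCAAT, the NF-Y box, and for GGGCGG, the GC box. The sequences below run 5′ to 3′ on the gene's strand, and capitals mark TCACCCCAC and CCAAT on either strand, so that ATTGG is CCAAT on the other strand.
SREBF2 (chr22:41832855-41833154, plus strand, higher in UXS1 KO): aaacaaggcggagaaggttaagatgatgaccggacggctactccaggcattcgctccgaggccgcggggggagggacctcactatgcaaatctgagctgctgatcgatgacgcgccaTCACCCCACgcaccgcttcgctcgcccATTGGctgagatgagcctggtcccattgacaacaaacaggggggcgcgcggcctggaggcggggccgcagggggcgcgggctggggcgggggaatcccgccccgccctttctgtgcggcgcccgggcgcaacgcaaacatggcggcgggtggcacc
FDPS (chr1:155308616-155308915, plus strand, lower in UXS1 KO): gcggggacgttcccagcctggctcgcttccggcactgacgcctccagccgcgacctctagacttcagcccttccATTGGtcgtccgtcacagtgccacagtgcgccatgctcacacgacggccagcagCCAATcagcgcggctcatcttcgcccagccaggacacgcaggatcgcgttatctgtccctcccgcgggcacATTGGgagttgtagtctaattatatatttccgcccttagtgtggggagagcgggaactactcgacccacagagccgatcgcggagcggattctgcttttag
MSMO1 (chr4:165327419-165327718, plus strand, higher in UXS1 KO): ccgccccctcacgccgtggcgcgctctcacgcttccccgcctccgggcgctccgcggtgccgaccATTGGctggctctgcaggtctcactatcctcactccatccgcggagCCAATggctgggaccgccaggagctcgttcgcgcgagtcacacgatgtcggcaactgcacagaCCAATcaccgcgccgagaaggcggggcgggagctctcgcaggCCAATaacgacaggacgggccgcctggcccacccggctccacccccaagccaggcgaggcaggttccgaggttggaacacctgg
TM7SF2 (chr11:65111622-65111921, plus strand, higher in UXS1 KO): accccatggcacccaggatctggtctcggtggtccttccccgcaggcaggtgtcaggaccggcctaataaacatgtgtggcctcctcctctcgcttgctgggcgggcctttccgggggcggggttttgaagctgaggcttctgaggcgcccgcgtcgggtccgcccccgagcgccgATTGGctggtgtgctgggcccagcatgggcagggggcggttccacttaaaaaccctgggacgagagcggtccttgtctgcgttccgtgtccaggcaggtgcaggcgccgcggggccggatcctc

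FDPS and MSMO1 moved in opposite directions, and both windows hold several CCAAT boxes, 3 in FDPS and 4 in MSMO1, while TM7SF2 holds 1. Of 15 synthesis genes with a window 13 held CCAAT, in 75.0% of their 20 windows, against 34.2% of the 16257 windows of tested genes. For the other 12 genes 6 held it, in 33.3% of 18 windows. The exact TCACCCCAC was found in SREBF2 alone, 133 bases before its start, against 0.351% of the windows of tested genes, and TCACNCCAC gave the same single match (0.978% of those windows). GC boxes were common, in 86.8% of the 38 windows of these genes and in 64.8% of those of tested genes. Many working sterol elements depart from these letters or lie outside the window.

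**Figure D2:**
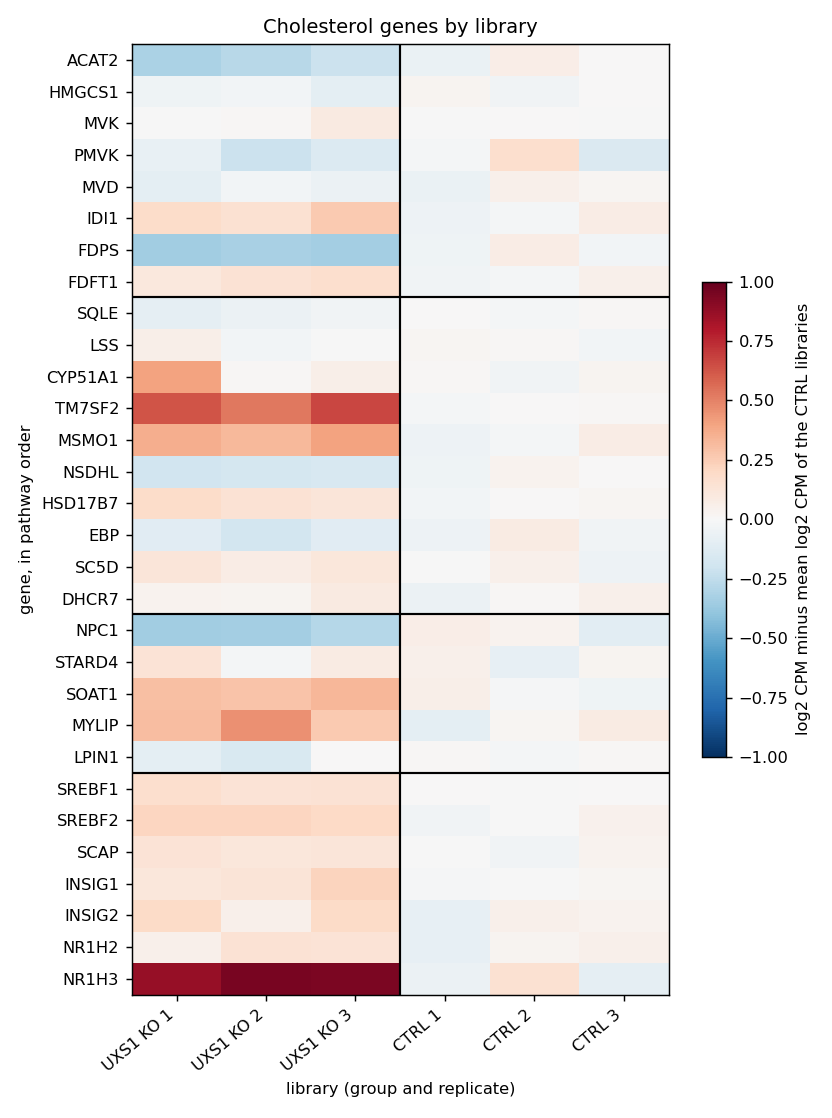
Heat map of the 30 genes (rows, in pathway order, with lines between the early synthesis, late synthesis, uptake and regulator blocks) by library (columns, UXS1 KO to the left of CTRL); colour is log2 CPM minus the mean log2 CPM of the CTRL libraries. The rows of NR1H3, TM7SF2 and MSMO1 are red in all 3 UXS1 KO libraries and those of FDPS, NPC1 and ACAT2 are blue, while CYP51A1 is red mainly in UXS1 KO replicate 1.

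Among genes of cholesterol movement and storage, NPC1 fell and SOAT1 and MYLIP rose. NPC1, the membrane protein that lets cholesterol out of lysosomes, had 108, 109 and 113 CPM in UXS1 KO libraries, against 144, 141 and 128 CPM in CTRL libraries. The UXS1 KO values were tightly grouped below all CTRL values, with a UXS1 KO over CTRL ratio of 0.798 (log2 fold change -0.33, SE 0.0426, edgeR adjusted p = 4.4e-07). SOAT1, which esterifies cholesterol for storage in lipid droplets, had 92.8, 91.5 and 94.5 CPM in UXS1 KO libraries, against 78.2, 74.6 and 72.9 CPM in CTRL libraries. It was higher without overlap, a 1.23-fold difference, with a 95% confidence interval of 1.16 to 1.31 (log2 fold change 0.30, SE 0.0410, edgeR adjusted p = 7.2e-07).

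MYLIP, a ubiquitin ligase that marks lipoprotein receptors for degradation and is a target of LXR, had 15.7, 17.4 and 15.2 CPM in UXS1 KO libraries, against 11.8, 12.8 and 13.4 CPM in CTRL libraries. Its level was low but the groups stayed apart (log2 fold change 0.34, SE 0.0793, edgeR adjusted p = 7.8e-04). STARD4, a cytosolic sterol carrier, had 36.6, 32.8 and 35.2 CPM in UXS1 KO libraries, against 34.6, 31.5 and 33.9 CPM in CTRL libraries, with overlapping groups (log2 fold change 0.07, SE 0.0564, edgeR adjusted p = 0.35). LPIN1, a phosphatidate phosphatase that also acts on SREBP in the nucleus, had 83, 79.7 and 89 CPM in UXS1 KO libraries, against 89.3, 87.4 and 89.7 CPM in CTRL libraries (log2 fold change -0.08, SE 0.0431, edgeR adjusted p = 0.12). The LPIN1 groups overlapped, and without UXS1 KO replicate 3, the highest of its group, the gene was called lower (edgeR adjusted p = 0.0304).

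All 7 regulators had a positive log2 fold change, as did 7747 of the 15757 genes tested. Of the 7, 6 passed the test, or 85.7%, where 24.5% of all genes tested were called higher and 23.7% lower. SREBF2, which encodes SREBP2, the main driver of cholesterol synthesis genes, had 281, 282 and 278 CPM in UXS1 KO libraries, against 237, 242 and 250 CPM in CTRL libraries. SREBF1, which encodes SREBP1, the form tied more to fatty acid genes, had 747, 733 and 736 CPM in UXS1 KO libraries, against 668, 663 and 668 CPM in CTRL libraries. Neither gene's groups overlapped, and both rises were small. For SREBF2 it was a 1.16-fold difference, with a 95% confidence interval of 1.10 to 1.21 (log2 fold change 0.21, SE 0.0350, edgeR adjusted p = 1.9e-05). For SREBF1 it was a 1.11-fold difference, with a 95% confidence interval of 1.06 to 1.16 (log2 fold change 0.15, SE 0.0330, edgeR adjusted p = 5.2e-04).

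SCAP, the escort of both factors, had 121, 119 and 120 CPM in UXS1 KO libraries, against 110, 108 and 113 CPM in CTRL libraries (log2 fold change 0.12, SE 0.0378, edgeR adjusted p = 0.0092). INSIG1, the retention protein that is itself an SREBP target, had 123, 125 and 133 CPM in UXS1 KO libraries, against 113, 114 and 115 CPM in CTRL libraries (log2 fold change 0.16, SE 0.0393, edgeR adjusted p = 0.0016). Each was higher in every UXS1 KO library than in any CTRL library, though by no more than 1.12-fold. INSIG2, the other retention protein, had 19.9, 18.1 and 20.03 CPM in UXS1 KO libraries, against 16.5, 18.1 and 17.9 CPM in CTRL libraries. Its groups lay next to each other and it did not pass the test (log2 fold change 0.15, SE 0.0695, edgeR adjusted p = 0.085), except without UXS1 KO replicate 2 (edgeR adjusted p = 0.0491).

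The largest change of the 30 genes was that of NR1H3, which encodes LXR alpha. NR1H3 (ENSG00000025434.19, chromosome 11, positions 47248300 to 47269032, plus strand, GENCODE 29 on GRCh38) had 28, 29.5 and 29.3 CPM in UXS1 KO libraries, against 14.7, 17 and 14.4 CPM in CTRL libraries. The UXS1 KO libraries stood well clear of the CTRL libraries, a 1.88-fold difference, with a 95% confidence interval of 1.71 to 2.08 (log2 fold change 0.91, SE 0.0680, edgeR adjusted p = 1.6e-11). NR1H2, which encodes LXR beta, had 140, 149 and 148 CPM in UXS1 KO libraries, against 127, 138 and 140 CPM in CTRL libraries. CTRL replicate 3 reached the level of UXS1 KO replicate 1, and the rise was small (log2 fold change 0.11, SE 0.0411, edgeR adjusted p = 0.031). That call was lost without UXS1 KO replicate 2 (edgeR adjusted p = 0.127), UXS1 KO replicate 3 (0.103) or CTRL replicate 1 (0.175), and with DESeq2 (0.0672). Of the exonic length of NR1H3, 4.17% is shared with ACP2 on the opposite strand, which had a log2 fold change of 0.16.

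Some of the textbook LXR targets outside the 30 genes were higher as well. Of 5 listed, 3 rose and none fell, where 24.5% of all genes tested rose and 23.7% fell. The median over the 5 was 0.32 (log2). ABCG1, a sterol exporter, had 38.9, 39.4 and 46.7 CPM in UXS1 KO libraries, against 23.7, 21.9 and 28 CPM in CTRL libraries (log2 fold change 0.77, SE 0.0747, edgeR adjusted p = 2.8e-09). ABCA1, which exports cholesterol to apolipoproteins, had 48, 47.1 and 45.7 CPM in UXS1 KO libraries, against 37.1, 30.2 and 31.9 CPM in CTRL libraries (log2 fold change 0.50, SE 0.0598, edgeR adjusted p = 9.2e-08). Both exporters were higher in all UXS1 KO libraries than in all CTRL libraries. LPCAT3, a phospholipid remodelling enzyme, had a log2 fold change of 0.32 (edgeR adjusted p = 2.3e-05), but 65.6% of its exonic length is shared with EMG1 on the opposite strand, so it is uncertain. SMPDL3A stood at 0.25 (edgeR adjusted p = 0.076) and did not pass the test.

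**Figure D3:**
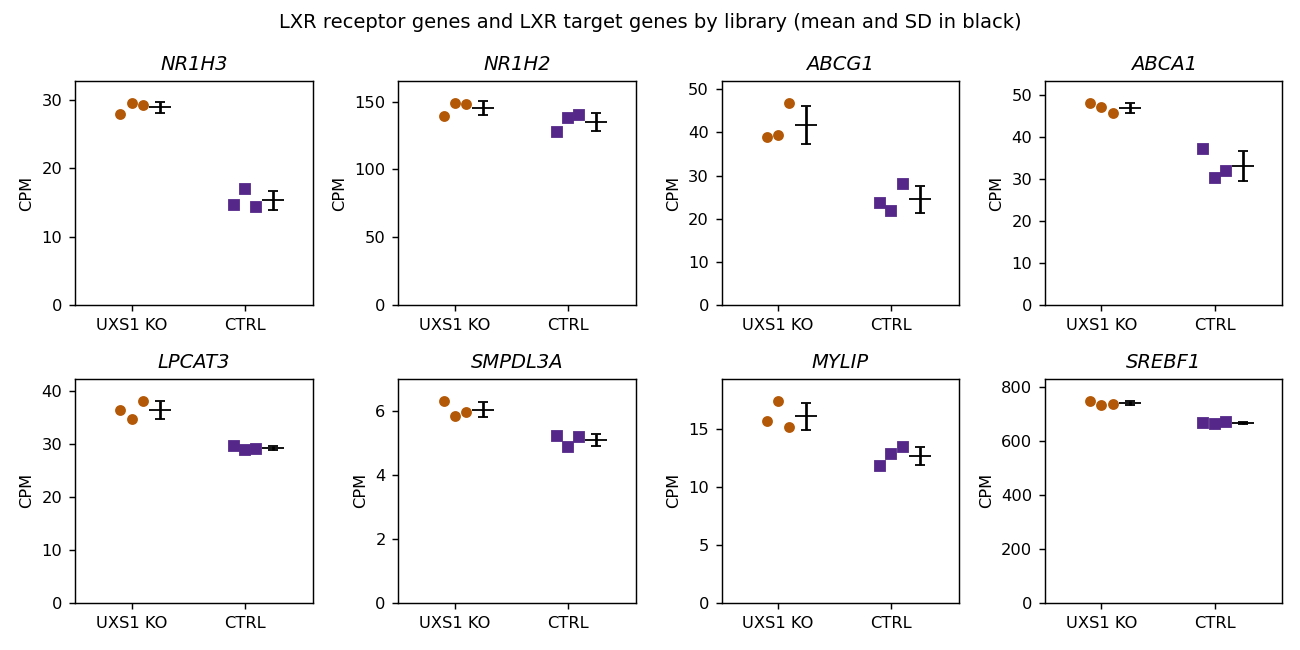
CPM by library (points) of the LXR receptor genes NR1H3 and NR1H2 and of 6 LXR target genes, UXS1 KO to the left of CTRL in each panel, with the mean and SD of each group in black and axes from 0. NR1H3, ABCG1 and ABCA1 show clear gaps between groups, while the groups of NR1H2 overlap.

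LXR alpha is known for its part in macrophages, and markers of leukocytes moved in both directions. Of the 7 leukocyte markers with a row 5 could be tested, of which 4 were higher and 1 was lower, beside 24.5% higher and 23.7% lower over all genes tested. The 7 summed to 27.3 to 28.96 CPM in UXS1 KO and 10.6 to 13.01 CPM in CTRL, most of it CD14 (22.6 CPM in UXS1 KO and 9.15 CPM in CTRL). The higher ones were CD14, LYZ, CD79A and LCP1, with log2 fold changes of 1.30, 3.04, 1.89 and 1.30. Their edgeR adjusted p were 4.5e-13, 6.2e-06, 6.1e-08 and 5.3e-04. Apart from CD14, none of the higher markers averaged above 2.66 CPM. The lower one was CORO1A, at 0.465 CPM in UXS1 KO and 1.33 CPM in CTRL (log2 fold change -1.51, edgeR adjusted p = 5.4e-04). CD3E was at 0 in every library and CD68 averaged 0.108 CPM in UXS1 KO and 0.0303 CPM in CTRL. The 5 hepatocyte markers, of another tissue rich in LXR alpha, summed to 4.29 to 5.14 CPM in UXS1 KO and 0.460 to 0.546 CPM in CTRL, mainly TTR, with APOA2 at 0. TTR alone could be tested and was higher, at 3.88 CPM in UXS1 KO and 0.247 CPM in CTRL (log2 fold change 3.94, edgeR adjusted p = 1.2e-12). Of 8 fibroblast markers 5 could be tested, of which 4 were higher and none lower, beside 24.5% higher and 23.7% lower over all genes tested. The 8 summed to 28.4 to 31.8 CPM in UXS1 KO and 22.9 to 26.3 CPM in CTRL. The level came mainly from COL1A1 (14.8 CPM in UXS1 KO and 14.2 CPM in CTRL) and THY1 (11.6 CPM in UXS1 KO and 8.09 CPM in CTRL). Apart from THY1, the highest mean among the higher markers was 1.53 CPM. The 6 endothelial markers summed to 61.2 to 61.9 CPM in UXS1 KO and 50.4 to 54.5 CPM in CTRL, nearly all EGFL7 (60.3 CPM in UXS1 KO and 51.1 CPM in CTRL). The part of these cell types in the results was not tested, and in bulk RNA more cells of a type and more RNA per cell cannot be told apart.

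Levels per gene length differed by more than an order of magnitude among the 30 genes. In CTRL cells SREBF1 was highest at 282 ± 6.57 TPM (SD, n = 3), followed by DHCR7 at 241 ± 7.36 TPM. SQLE at 160 ± 4.48 TPM and FDFT1 at 158 ± 5.36 TPM differed by less than their SD. The lowest were CYP51A1 at 8.04 ± 0.324 TPM and NR1H3 at 11.8 ± 0.895 TPM, so the gene with the largest fold change was among the least abundant. The level of CYP51A1 is uncertain, as 79.4% of its exonic length is shared with other annotated transcripts on the same strand. NR1H3 stood at 22.2 ± 0.696 TPM in UXS1 KO cells, against 94.9 ± 3.55 TPM for NR1H2 in the same cells. The spread within a group was small, with a median coefficient of variation of 2.72% in UXS1 KO and 3.67% in CTRL over the 30 genes. The widest was that of CYP51A1 in UXS1 KO, at 15.4%.

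**Figure D4:**
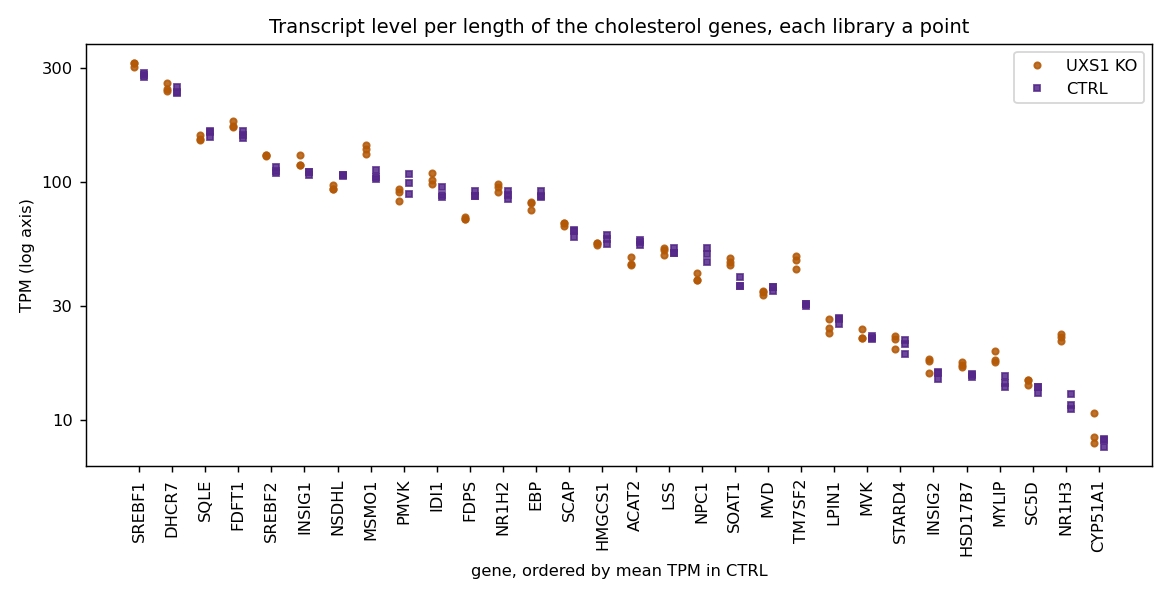
TPM (log axis) of each of the 30 genes in every library, with UXS1 KO as circles to the left of CTRL as squares and genes ordered by their mean in CTRL. SREBF1 and DHCR7 lead, CYP51A1 is lowest, though its level is uncertain because of exonic overlap, and the gap between groups is widest for NR1H3.

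Genes that neighbour the cholesterol route were read from 7 lists. Of 17 sterol transport genes 13 rose and none fell, or 76.5% higher, against 24.5% higher and 23.7% lower over all genes tested. Their median was 0.28 (log2), against -0.00301 for all genes tested. LRP1, an endocytic lipoprotein receptor, had 117, 110 and 120 CPM in UXS1 KO libraries, against 87.1, 69.2 and 73.1 CPM in CTRL libraries (log2 fold change 0.60, SE 0.0565, edgeR adjusted p = 1.5e-09). LIPA, the lysosomal lipase that frees cholesterol from its esters, had 195, 206 and 205 CPM in UXS1 KO libraries, against 157, 153 and 156 CPM in CTRL libraries (log2 fold change 0.38, SE 0.0365, edgeR adjusted p = 2.0e-09). The groups did not overlap in either gene, and the same held for GRAMD1A, which moves plasma membrane cholesterol to the endoplasmic reticulum (log2 fold change 0.30), and SCP2, a sterol carrier (0.35). NPC2, the soluble partner of NPC1 in lysosomes, had a log2 fold change of 0.02, against -0.33 for NPC1, and did not pass the test (edgeR adjusted p = 0.73).

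In the machinery that cleaves SREBPs and turns over sterol regulated proteins, 4 of 10 genes rose and none fell, beside 24.5% higher and 23.7% lower over all genes tested. The median of the 10 was 0.04 (log2). RNF145, a sterol responsive ubiquitin ligase and LXR target in mouse, had 250, 252 and 266 CPM in UXS1 KO libraries, against 195, 191 and 205 CPM in CTRL libraries (log2 fold change 0.38, SE 0.0379, edgeR adjusted p = 4.4e-09). The site 2 protease MBTPS2 rose by 0.21 on the log2 scale and the scaffold ERLIN2 by 0.22. MBTPS1, the site 1 protease, stood at -0.03 (edgeR adjusted p = 0.60).

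Fatty acid genes of the SREBP1 type gave 6 rises and no fall among 9, with a median of 0.15 (log2), beside 24.5% higher and 23.7% lower over all genes tested. ACSS2, which makes acetyl-CoA from acetate, rose by 0.36 on the log2 scale, MID1IP1, an activator of acetyl-CoA carboxylase, by 0.27, the desaturase FADS2 by 0.16 and the elongase ELOVL6 by 0.19. The 3 genes that did not pass the test were the core enzymes that make malonyl-CoA and its precursor and build the chain. ACLY had a log2 fold change of -0.07 (edgeR adjusted p = 0.11), ACACA -0.04 (0.42) and FASN -0.02 (0.75).

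The non-sterol branches after farnesyl diphosphate gave 3 rises and 2 falls among 15 genes and a median of -0.01 (log2). These shares, 20% and 13.3%, were below the 24.5% and 23.7% of all genes tested. GGPS1, the geranylgeranyl diphosphate synthase, had a log2 fold change of 0.25, with 37.3% of its exonic length shared with TBCE on the same strand, and PGGT1B, a subunit of a prenyltransferase, had 0.18. PDSS1, of the coenzyme Q tail, stood at -0.38 and the carboxyl methyltransferase ICMT at -0.12.

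Accessory proteins of the sterol enzymes gave 2 rises and 1 fall among 8 genes, shares of 25% and 12.5% beside the 24.5% and 23.7% of all genes tested. The median of the 8 was 0.03 (log2). LBR, an inner nuclear membrane protein that carries out the same C14 reduction as TM7SF2, had 77.7, 79.6 and 79.9 CPM in UXS1 KO libraries, against 106, 99.9 and 99 CPM in CTRL libraries. It was lower without overlap (log2 fold change -0.36, SE 0.0409, edgeR adjusted p = 3.5e-08), against the rise of TM7SF2. The cytochromes CYB5B and CYB5A rose by 0.37 and 0.32, and CYB5B shares 35.1% of its exonic length with a gene on the same strand. Of 7 oxysterol and bile acid enzymes 4 could be tested, so few that a share means little. Of these 2 rose and none fell, beside 24.5% higher and 23.7% lower over all genes tested. The 2 were HSD3B7 (log2 fold change 0.39) and CYP7B1 (0.51). CYP7B1 stood at only 2.63 CPM in UXS1 KO and 1.83 CPM in CTRL, and HSD3B7 shares 64.6% of its exonic length with a gene on the opposite strand.

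**Figure D5:**
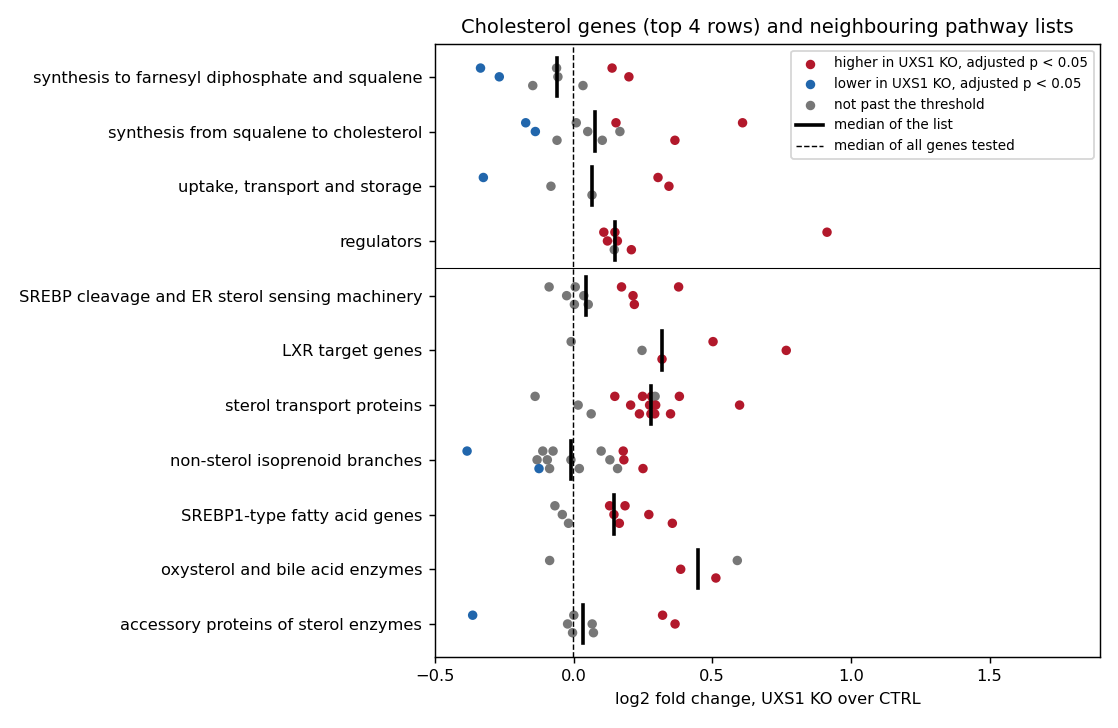
Log2 fold change (UXS1 KO over CTRL, x axis) of each tested gene by list, with the 30 genes in the top 4 rows and the neighbouring lists below; black bars are list medians and the dashed line is the median of all genes tested. The bar of sterol transport proteins lies at 0.28 and that of the non-sterol isoprenoid branches at -0.01.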

How the data were processed

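The data are 3 UXS1 KO and 3 CTRL RNA-seq libraries. The deposited tables hold raw counts per gene and TPM, a relative level corrected for transcript length, per gene for each library. Per the submitters' processing notes, STAR, featureCounts and DESeq2 were used with genome build hg38. For the tool versions, the strand setting of the counting and the annotation release no source used here gives a value. The authors' deposited counts were tested as they stand, and the TPM values deposited by the authors were used to compare levels between genes and as an alternative.

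Genes were kept by edgeR's filterByExpr (15757 of 28317) and tested with edgeR 4.0.16 in R 4.3.3 (TMM normalization, quasi-likelihood F test, UXS1 KO against CTRL, Benjamini-Hochberg adjustment over all genes tested, adjusted p under 0.05). CPM values in the text use TMM-adjusted library sizes. Alternatives were DESeq2 1.42.0, limma-voom (limma 3.58.1), other scalings and filters, a replicate block, log2(TPM + 1) and log2(TPM + 0.1), and leaving out each library. Library totals of 21121489 to 22160405 counts set the counting error. Gene positions and exonic overlaps came from GENCODE 29 and promoters from RefSeq (GRCh38.p14). Of the 30 genes, 14 share some exonic sequence with a gene on the opposite strand and 2 with one on the same strand.

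All 30 genes are named in the text. Some results are not reported here. From each neighbouring list the genes named were up to 4 called genes with the smallest adjusted p, and markers were named when at 0 in all libraries or above 5 CPM on average. Other genes (SMPDL3A, NPC2, ACLY, ACACA, FASN, MBTPS1, CD68, CORO1A, LYZ, CD79A, LCP1, TTR and the low alveolar markers) were named after their values were seen. The members and the lists were chosen with earlier results of these data known. The spread behind each p-value is that between the 6 libraries.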

Additional observations from a re-analysis of the deposited data

How the results depend on the processing

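Of the 30 genes, 21 kept their direction and their side of the threshold under all 16 alternatives. HSD17B7 lost its call in 8 of them, NR1H2 in 7, EBP in 4 and SCAP in 1, log2(TPM + 1) without a filter. PMVK, SC5D, LPIN1 and INSIG2 gained a call in 1 each. LSS reversed without UXS1 KO replicate 1 (log2 fold change -0.0135) and without CTRL replicate 3 (-0.003601), with a highest value of 0.02908 without UXS1 KO replicate 2, and was past the threshold under none of the alternatives. The number of uptake and regulator genes that were lower ran from 1 to 2 over the left-out libraries, the second being LPIN1 without UXS1 KO replicate 3. The causes were not tested. The number of calls over all genes was 7590, against 6179 with DESeq2 and 5516 with log2(TPM + 1) without a filter. The share of calls that were higher stayed between 49.4% and 54.1% over all settings.

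The deviations of same-numbered libraries had correlations of 0.0055, 0.0157 and 0.0340, and those of differently numbered libraries ran from -0.0272 to 0.0119. UXS1 KO replicate 1 correlated best with CTRL replicate 2, while UXS1 KO replicates 2 and 3 correlated best with the CTRL library of the same number. Correlations this small cannot show whether the numbers pair the libraries. With the replicate block 7898 genes were called, with 5 higher and 4 lower among the synthesis genes and 8 higher and 1 lower among the others, and it changed no call of the 30 genes.

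With a single guide, effects of the guide and of UXS1 loss cannot be told apart. For the 12 genes not called, the 95% confidence intervals of the fold lay within 0.819 and 1.30.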

Other observations

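Ratios of TPM between genes of related function were formed after their values had been seen, 6 in all, as a description within each library. TM7SF2 and LBR catalyse the same reduction, and the ratio of TM7SF2 to LBR was 0.962 ± 0.0517 in UXS1 KO and 0.490 ± 0.0247 in CTRL (SD, n = 3 each), without overlap. The ratio of MSMO1 to NSDHL, which act in sequence, was 1.45 ± 0.0343 in UXS1 KO and 0.997 ± 0.0420 in CTRL. The ratio of SOAT1 to NPC1 was 1.17 ± 0.0170 in UXS1 KO and 0.757 ± 0.0285 in CTRL. The ratio of NR1H3 to NR1H2 was 0.234 ± 0.00148 in UXS1 KO and 0.134 ± 0.0122 in CTRL. The ratio of SREBF1 to SREBF2 was 2.41 ± 0.0279 in UXS1 KO and 2.52 ± 0.0642 in CTRL. The exact two-sided permutation p was 0.1 for each of these (adjusted over the 6 ratios 0.12), the smallest that 3 libraries against 3 allow, so none passes a threshold of 0.05. The ratio of INSIG1 to INSIG2 was 7.12 ± 0.382 in UXS1 KO and 7.06 ± 0.325 in CTRL, and the groups overlapped (exact permutation p = 0.9).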
